A study of Bos taurus with 40 samples.

Results

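Hepatic RNAseq libraries of 20 Holstein Friesian bulls of the restricted diet group (RES) are described here, out of 40 libraries in the series. Of the 20 libraries, 10 were taken at the end of restriction (day 125 of Period 1). The other 10 were taken at day 55 of the re-alimentation that followed (Period 2). They were chosen by their labels alone, which give the diet, the period and the day. All bulls were male and received the same ration of 70% concentrate and 30% grass silage, in a trial of 180 days. RES bulls were held to a restricted allowance in Period 1, and those sampled in Period 2 were then fed ad libitum. The 20 control bulls (ADLIB) were fed ad libitum throughout. No genotype, transgene or agent was part of the design. The labels' design text describes biopsies at both times, while the study's methods describe bulls slaughtered at each time point, so the RES libraries of the periods were treated as different animals. Each animal gave 1 library, and the spread between libraries was therefore that between animals. Day, season and age changed together with feeding, and the ADLIB bulls serve here only as a measure of change over time under constant feeding.

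Compensatory growth is the faster growth of an animal that returns to full feeding after a period of restriction. The liver is central to it, since it takes up nutrients absorbed by the gut, makes glucose, disposes of nitrogen as urea, synthesises and exports lipid and plasma proteins, and releases growth factors in response to growth hormone. In ruminants most glucose is made by the liver rather than absorbed, so hepatic metabolism follows feed intake closely. The count tables identify genes by Ensembl identifiers and no table used here pairs these with gene names. The genes are therefore described by their numbers, sizes of change and abundance, the largest changes are given by identifier, no pathway is named, and the liver label could not be checked against marker genes.

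At the end of restriction the RES libraries held 9604046 to 13151862 reads on genes, and at day 55 of re-alimentation 8656866 to 13282110. The means did not differ beyond the spread between animals (two-sided permutation test, p = 0.396). The percentage of counted reads that fell on genes rose from 75.8 ± 1.79 (SD, n = 10) to 77.7 ± 1.55 in RES (permutation test, p = 0.0217), and fell from 78.1 ± 1.07 to 76.6 ± 1.33 in ADLIB (permutation test, p = 0.00794). No pair of animals in a group had counts that agreed within sampling noise, with a chi-square of at least 17.8 per degree of freedom.

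Hepatic transcript profiles of RES bulls separated by period. Across 12101 genes with at least 4 reads in every RES animal, a share of 0.207 of the squared distance between animals, on log2 CPM (reads on a gene scaled to a common library size), lay between the periods (permutation test of the period labels, p = 1e-05, the smallest that 100000 permutations can give). In ADLIB the share was 0.107 (permutation test, p = 0.00101). Shuffled labels also put some of the distance between groups, so neither share is wholly a separation by period. When each RES animal was left out of its own group mean, 10 of 10 animals in Period 1 and 10 of 10 in Period 2 were nearer to the mean of their own group than to that of the other. The animals of a group were about as far apart at both times. The root mean square distance to the mean of the other animals of the group was 0.408 ± 0.0370 log2 units (SD, n = 10) in Period 1 and 0.403 ± 0.0421 in Period 2 (permutation test, p = 0.779).

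Each library was also placed on the line that joins the RES mean of Period 1 (position 0) to the RES mean of Period 2 (position 1), with a RES animal left out of the mean it was compared with. This used 11868 genes with at least 4 reads in all 40 animals and 1 normalisation over them. RES animals lay between -0.195 and 0.458 in Period 1, with a median of 0.130, and between 0.590 and 1.14 in Period 2, with a median of 0.908. Every RES animal of Period 2 lay beyond every RES animal of Period 1. The RES animal nearest to the other group was replicate 5 in Period 1 and replicate 8 in Period 2. The ADLIB animals had no part in drawing the line. In Period 1 they lay between 0.474 and 0.817 (median 0.636), above all 10 RES animals of that period. In Period 2 they lay between 0.455 and 1.14 (median 0.759), where they overlapped both ADLIB in Period 1 and RES in Period 2. The lowest of them, replicate 4 at 0.455, was also just below RES replicate 5 of Period 1 at 0.458.

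**Figure D1:**
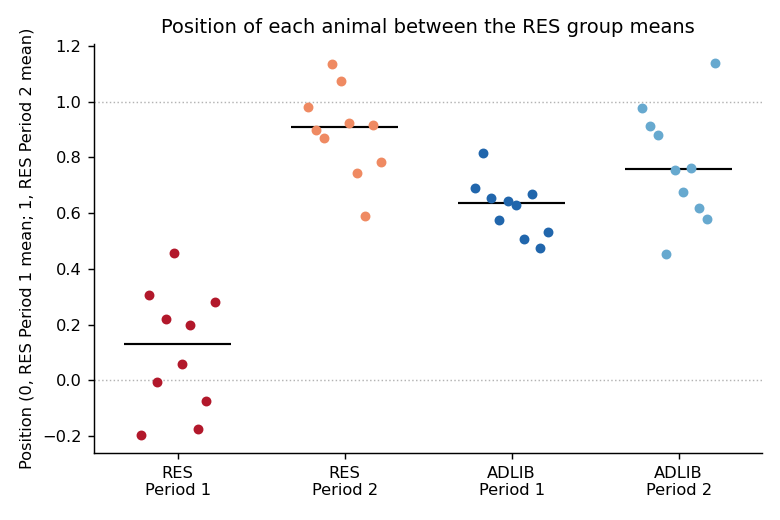
Position of each of the 40 animals (vertical axis, no unit) on the line from the RES mean of Period 1, at 0, to the RES mean of Period 2, at 1, by group of 10; points are animals, bars are group medians and dotted lines mark 0 and 1. RES animals of Period 1 sit between -0.195 and 0.458 and those of Period 2 between 0.590 and 1.14, with no overlap.

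Genes both rose and fell between the end of restriction and day 55 of re-alimentation. Of the 12101 genes tested, 2458 (20.3%) were differentially expressed in RES between the periods, of which 1117 (9.23%) were higher in Period 2 and 1341 (11.1%) were lower (edgeR quasi-likelihood test with Benjamini-Hochberg false discovery rate, FDR, under 0.05, and a change of at least 0.32 on the log2 scale). At an unadjusted p under 0.05, 4509 genes (37.3%) differed. The balance of directions depended on the threshold and the scaling. At an FDR under 0.0005, 93 genes were higher and 345 lower, and edgeR's glmTreat, which tests against the minimum change itself, called 185 higher and 422 lower. With libraries scaled by total reads on genes in place of TMM, which sets the typical gene near no change, 1668 genes were higher and 854 lower, and the median log2 change of all genes moved from 0.02 to 0.11. In all, 1969 genes were called in the same direction under both scalings and 0 in opposite directions.

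Most changes were small. The median log2 change was 0.54 among the genes that rose and -0.54 among those that fell. At least a 1.5-fold change was seen in 468 of the rising and 570 of the falling genes, at least 2-fold in 118 and 86, and at least 4-fold in 6 and 7. The falls were the more uniform between animals. The genes that fell were also the more abundant, with a median log2 CPM of 4.60 against 4.07 for those that rose. Whether abundance accounts for the difference in uniformity was not tested. Groups that did not overlap, with all 10 animals of one period beyond all 10 of the other, were found in 252 (2.08%) of the 12101 genes, of which 43 (0.355%) were higher in Period 2 and 209 (1.73%) lower. Among the called genes, 41 of those that rose (3.67%) and 209 of those that fell (15.6%) did not overlap. Scaled by total reads, 58 genes were higher and 147 lower without overlap. The SD of log2 CPM between animals of Period 2 had a median of 0.32 among the genes that rose, 0.25 among those that fell and 0.29 over all genes tested.

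Falls were most frequent among the abundant transcripts. Of 125 genes with a mean of at least 1000 normalised CPM over the RES animals, 33 (26.4%) fell and 8 (6.4%) rose. Of 950 genes between 100 and 1000 CPM, 236 (24.8%) fell and 81 (8.53%) rose. Below that the directions were nearly even with TMM, with 708 falls (11.6%) and 651 rises (10.7%) among 6102 genes between 10 and 100 CPM, and 363 falls (7.51%) and 374 rises (7.74%) among 4832 genes between 1 and 10 CPM. Under scaling by total reads, falls still exceeded rises among the genes at 1000 CPM or more (25 against 16) and between 100 and 1000 CPM (190 against 119), whereas rises exceeded falls between 10 and 100 CPM (1025 against 424) and between 1 and 10 CPM (501 against 215). Counting error is smaller in abundant genes, and the share of genes called in either direction rose with abundance from 15.3% between 1 and 10 CPM to 33.4% between 100 and 1000 CPM. A downward tilt of abundant genes was also seen in ADLIB, classed by its own mean CPM. With TMM, the median log2 change of all genes at 1000 CPM or more was -0.157 in RES and -0.148 in ADLIB. Between 100 and 1000 CPM it was -0.096 in RES and -0.097 in ADLIB. Called ADLIB genes were few, with 3 falls and 1 rise, and 17 falls and 15 rises, in these classes.

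**Figure D2:**
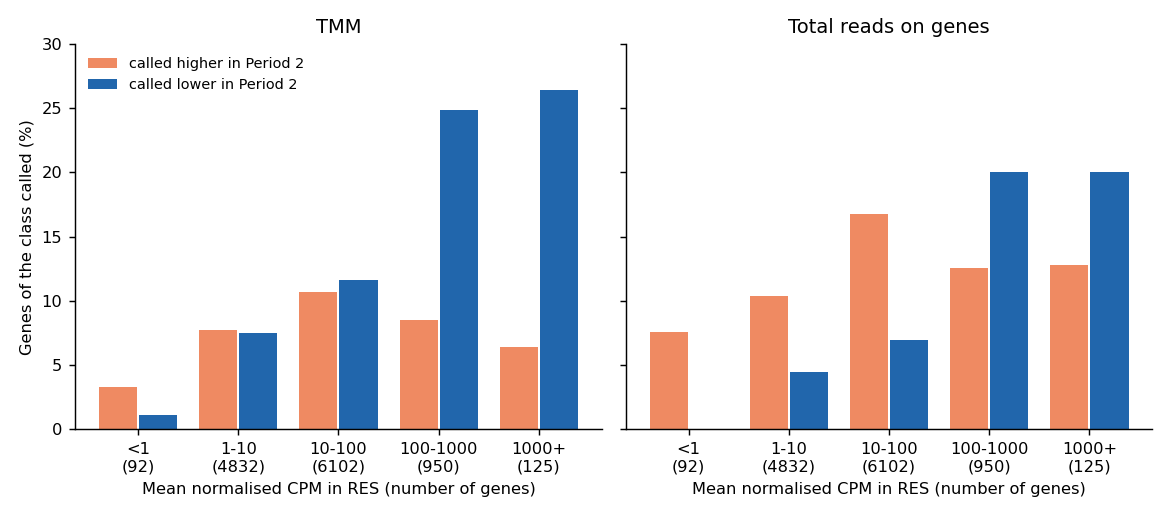
Percentage of genes called higher or lower in Period 2 in RES (vertical axis, %) by class of mean normalised CPM (horizontal axis, number of genes in brackets), with TMM scaling on the left and scaling by total reads on genes on the right. At 100 CPM or more, falls exceed rises under both scalings, and between 10 and 100 CPM the direction turns with the scaling. Between 1 and 10 CPM the directions are nearly even with TMM, and rises exceed falls under scaling by total reads.

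The falling genes held a large part of the hepatic messenger RNA at the end of restriction. As a share of reads on genes, the 1341 genes that fell made up 20.6% to 30.4% of reads in RES in Period 1 (mean 25.1%) and 15.7% to 18.8% in Period 2 (mean 16.8%). These RES values follow from how the genes were chosen. In ADLIB, which was not used to choose them, the same genes made up 19.8% ± 1.49 (SD, n = 10) in Period 1 and 18.0% ± 1.31 in Period 2. The 1117 genes that rose made up a mean of 6.79% of reads in RES in Period 1 and 11.0% in Period 2, against 9.67% ± 0.493 and 9.97% ± 0.707 in ADLIB. In these whole-tissue samples, fewer cells of a type and less RNA per cell cannot be told apart.

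The largest fall was that of ENSBTAG00000005596. Its normalised CPM in RES had a lowest value of 113, a median of 307 and a highest value of 727 in Period 1, and of 6.75, 35.8 and 82.4 in Period 2. All 10 animals of Period 2 were below all 10 of Period 1. The log2 change was -3.14 (SE 0.42, edgeR FDR = 2.07e-05), and the log2 ratio of the group medians was -3.10. In ADLIB, on the ADLIB scaling, the lowest, median and highest values were 1.51, 4.75 and 41.5 in Period 1 and 2.45, 8.79 and 197 in Period 2. ADLIB replicates 3, 4 and 5 of Period 2 were higher than any ADLIB animal of Period 1, and the groups otherwise overlapped (log2 change 1.76, SE 0.87, edgeR FDR = 0.287). These 3 animals have library names that open with the number 2, which no ADLIB animal of Period 1 has. ADLIB replicates 2 and 6 of Period 2 have the same number and had 9.39 and 6.99. With a block for this number the ADLIB change was -0.79 (edgeR FDR = 0.770). That fit takes no information on the period from the 5 ADLIB animals of Period 2 with number 2. The 3 high animals thus have no part in this estimate, and whether the number accounts for their values was not tested. RES animals of Period 2 lay within the ADLIB range of that period, though their median was higher.

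ENSBTAG00000000042 showed the next largest fall. In RES it had a lowest, median and highest normalised CPM of 7.90, 50.5 and 85.6 in Period 1, and of 2.06, 5.77 and 12.3 in Period 2. Of the 10 animals of Period 1, 9 were above every animal of Period 2, the exception being replicate 5, the same animal that lay nearest to the Period 2 group over all genes. The log2 change was -2.85 (SE 0.34, edgeR FDR = 5.85e-06). ADLIB animals stayed low at both times, between 2.77 and 8.33 (median 4.51) in Period 1 and between 2.66 and 8.63 (median 4.80) in Period 2, with a log2 change of 0.13 (SE 0.21, edgeR FDR = 0.783).

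The largest rise was that of ENSBTAG00000013103, and its size differed widely between animals. Its lowest, median and highest normalised CPM in RES were 21.4, 50.8 and 172 in Period 1, and 42.7, 144 and 1749 in Period 2. Replicates 4 and 5 of Period 2, at 1749 and 981, stood far above the next, replicate 9 at 224, and 3 of the 10 animals of Period 2 lay above every animal of Period 1. The Period 1 range ended in a single high animal, replicate 7, the next having 61.6, and 8 of the 10 animals of Period 2 lay above that value. The log2 change was 2.70 (SE 0.68, edgeR FDR = 0.00708), while the log2 ratio of the medians was 1.50. Without replicate 4 of Period 2 the log2 change was 1.91 and still called, and without replicate 7 of Period 1 it was 3.07. Without both replicates 4 and 5 it was 1.08 and no longer called (edgeR FDR = 0.0618). This value has to be smaller, since replicates 4 and 5 are the highest animals of the higher group. Its ADLIB median was 68.0 in Period 1 and 62.7 in Period 2 (log2 change -0.37, SE 0.38, edgeR FDR = 0.649).

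ENSBTAG00000013472, the next largest rise, was high in the same animals. Its lowest, median and highest normalised CPM in RES were 14.9, 39.3 and 127 in Period 1, and 37.3, 104 and 1053 in Period 2. Replicates 4, 5 and 9 of Period 2 were again the highest, at 1053, 654 and 168, and were the 3 animals above all of Period 1. Replicate 7 was again the highest of Period 1, the next having 57.4, and 8 of the 10 animals of Period 2 lay above that value and 9 above the Period 1 median. The log2 change was 2.40 (SE 0.60, edgeR FDR = 0.00719) and the log2 ratio of the medians 1.40. The log2 change was 1.73 without replicate 4 of Period 2 and 2.71 without replicate 7 of Period 1. Without replicates 4 and 5 of Period 2 it was 1.02, smaller by construction, and no longer called (edgeR FDR = 0.0504). In ADLIB the median was 65.3 in Period 1 and 67.6 in Period 2 (log2 change -0.21, SE 0.33, edgeR FDR = 0.780). Without replicates 4 and 5 of Period 2, 1837 genes were called over the whole table.

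**Figure D3:**
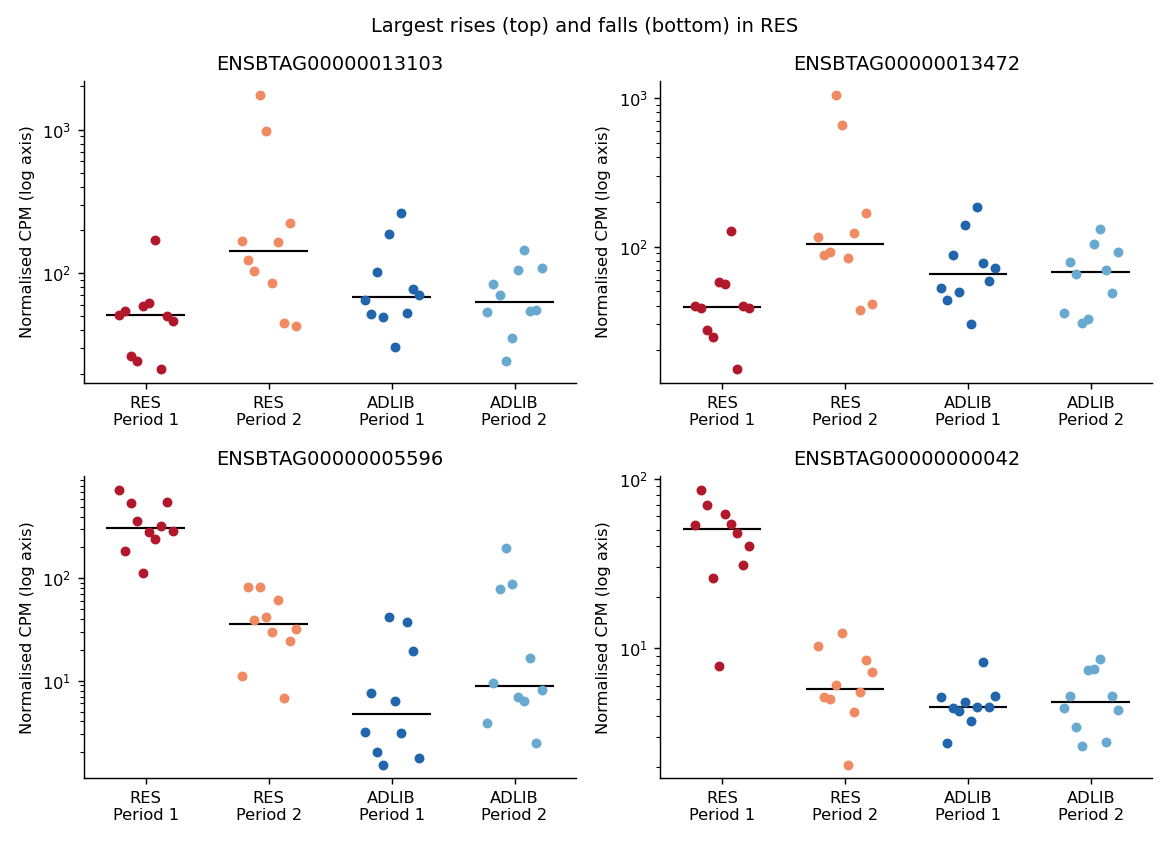
Normalised CPM (vertical axes, logarithmic) of the largest rises (top) and largest falls (bottom) in RES, by group of 10 animals; points are animals and bars are medians, with RES and ADLIB each on its own TMM scaling. Both falls set RES in Period 1 apart from the other 3 groups except for single animals, and in both rises replicates 4 and 5 of RES in Period 2 stand above the rest.

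Far fewer genes changed over the same interval in ADLIB. Of 12102 genes tested, 239 (1.97%) were differentially expressed between the periods, 160 (1.32%) higher and 79 (0.653%) lower in Period 2, and 4 (0.0331%) had groups that did not overlap. At an unadjusted p under 0.05, 2268 genes (18.7%) differed. The count of called genes was sensitive to the fit, since 875 genes were called under scaling by total reads, 7 with a covariate for the percentage of reads on genes and 0 with a block for the number that opens the library name, where 1514 had an unadjusted p under 0.05. In RES the covariate gave 2647 genes and the block 2700. In ADLIB the block takes no information on the period from the 5 animals of Period 2 with number 2. Numbers 1 and 4 each hold 1 ADLIB animal of Period 2, while each number holds RES animals of both periods. The block counts of the diets are therefore not comparable.

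Among 11868 genes tested in both diets, 64 were called in both, which is 2.63% of the 2435 called in RES, where 1.99% of all genes were called in ADLIB, and 27.1% of the 236 called in ADLIB, where 20.5% of all genes were called in RES. Of these, 38 rose in both, 20 fell in both and 6 moved in opposite directions. The genes that rose in RES had a median log2 change of 0.07 in ADLIB and 65.0% of them had an ADLIB estimate above 0. The genes that fell in RES had a median of -0.10 in ADLIB, and 25.8% had an estimate above 0, against 49.6% of all genes. Across the 11868 genes, which are not independent replicates, Pearson's r between the changes in RES and ADLIB was 0.223 and Spearman's rho 0.262. The diets share no animals, but libraries of a period may share handling, which the labels do not describe.

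**Figure D4:**
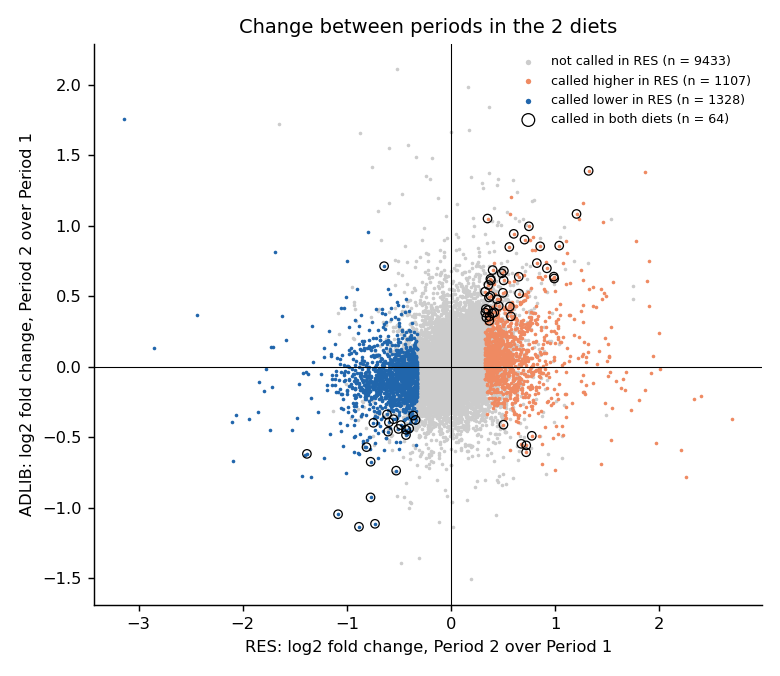
Log2 change from Period 1 to Period 2 in RES (horizontal axis) and in ADLIB (vertical axis) for 11868 genes; colours mark genes called higher or lower in RES, and open circles the 64 genes called in both diets. Genes called in RES spread along the horizontal axis, with median ADLIB changes of 0.07 for those that rose and -0.10 for those that fell.

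The change between periods itself differed between RES and ADLIB in 1121 of 11868 genes (9.45%; edgeR quasi-likelihood test of the interaction, FDR under 0.05). Of these, 429 (3.61%) had a larger rise or smaller fall in RES and 692 (5.83%) a smaller rise or larger fall in RES. With the same covariate, the count was 629. Of the genes called in RES, 322 of 1107 that rose (29.1%) and 549 of 1328 that fell (41.3%) also differed from the ADLIB change, each in the direction of its change in RES, and the RES libraries are part of both tests. For the other genes called in RES, a difference from the change over time in ADLIB was not shown. The 4 genes given by identifier differed between the diets in their change in the fit without a block, by 3.05 log2 units (SE 0.77, edgeR FDR = 0.00852) in ENSBTAG00000013103, 2.60 (SE 0.68, edgeR FDR = 0.0124) in ENSBTAG00000013472, -4.89 (SE 0.97, edgeR FDR = 9.97e-04) in ENSBTAG00000005596 and -2.99 (SE 0.41, edgeR FDR = 8.68e-06) in ENSBTAG00000000042. With the replicate number as block, the calls of both rises were lost, at 1.93 (edgeR FDR = 0.0821) in ENSBTAG00000013103 and 1.81 (edgeR FDR = 0.0605) in ENSBTAG00000013472. With the library-name block, the difference in ENSBTAG00000005596 was -3.80 (edgeR FDR = 0.0233).

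Set beside ADLIB within each period, with all 40 animals on 1 scaling, the genes that rose in RES had a median log2 ratio of RES to ADLIB of -0.33 in Period 1 (quartiles -0.51 and -0.18) and 0.11 in Period 2 (quartiles 0.01 and 0.23). The genes that fell had a median of 0.31 in Period 1 (quartiles 0.18 and 0.45) and -0.16 in Period 2 (quartiles -0.26 and -0.07). Both medians thus lay on one side of ADLIB at the end of restriction and closer to it, on the other side, at day 55 of re-alimentation, while genes not called in RES had medians of 0.02 and 0.003. These ratios use the same RES libraries that chose the genes, so their direction is in part set by the choice and no test was made. In ENSBTAG00000000042 the fitted ratio went from 3.25 to 0.26, and the log2 ratio of the group medians from 3.40 to 0.19. In ENSBTAG00000005596 the fitted ratio went from 4.79 to -0.10, but the ratio of medians from 5.95 to 1.97, since the fitted value of Period 2 includes the 3 high ADLIB animals. Its median thus stayed higher in RES than in ADLIB at day 55. In ENSBTAG00000013103 the fitted ratio went from -0.82 to 2.24 and that of the medians from -0.50 to 1.13. In ENSBTAG00000013472 these were -0.85 to 1.75 and -0.82 to 0.54, so that replicates 4 and 5 of RES carried much of the fitted values of both rises in Period 2.

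**Figure D5:**
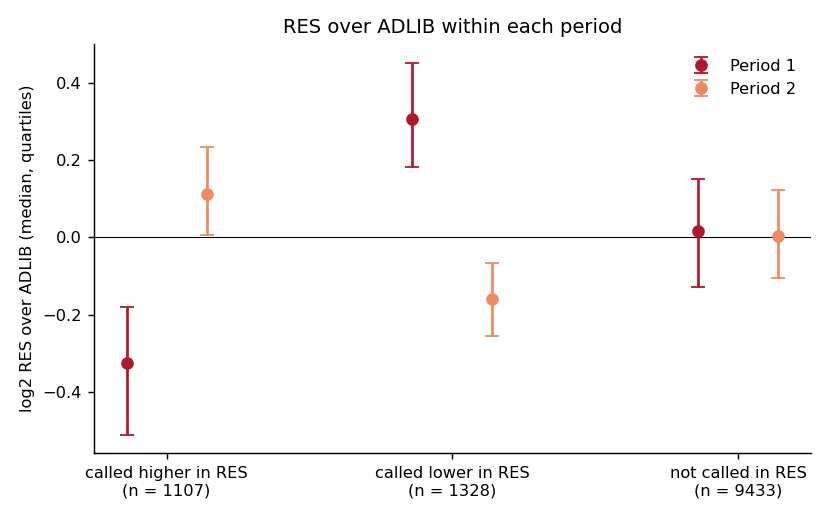
Median log2 ratio of RES to ADLIB (vertical axis; bars span the quartiles over genes, not animals) in each period, for genes called higher, lower or not called in RES between the periods. Genes that rose go from -0.33 to 0.11 and genes that fell from 0.31 to -0.16, and the RES libraries are shared with the choice of genes.

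The library names open with a number from 1 to 4, whose meaning the labels do not give, and each number holds RES animals of both periods. Within the numbers there were 3, 3, 2 and 2 RES animals in Period 1 and 3, 2, 2 and 3 in Period 2. Of the genes that rose, 1041 of 1117 (93.2%) rose in each of the 4 numbers taken alone, and of the genes that fell, 1264 of 1341 (94.3%) fell in each, against 43.1% of all genes tested with 1 direction in each of the 4 numbers. The called genes were chosen on these same animals. ENSBTAG00000013103 had log2 changes of 1.61, 4.86, 0.97 and 0.64 within numbers 1 to 4, the highest being in number 2, whose only RES animals of Period 2 were replicates 4 and 5. Within RES in Period 2, these animals and the number 2 cannot be told apart. In RES in Period 1, the animals of number 2 had 24.6, 59.1 and 61.6 normalised CPM of this gene. Those of number 2 in ADLIB in Period 2 had 24.3 to 106, on the ADLIB scaling. ENSBTAG00000005596 had -3.64, -1.94, -2.72 and -4.51, so that the direction was kept in all 4 while the size varied. In ADLIB the numbers were unevenly spread over the periods, with 3, 0, 3 and 4 animals in Period 1 and 1, 5, 3 and 1 in Period 2.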

How the data were processed

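RNAseq libraries of liver were made from 40 bulls, of which the 20 RES libraries were compared and the 20 ADLIB libraries served as background. Per the submitters' processing notes and the study's methods, the authors aligned single-end reads to UMD 3.1 with TopHat after base calling with CASAVA 1.4, used HTSeq to count the uniquely mapped reads that overlapped protein coding genes of the Ensembl annotation, and deposited these raw counts. The normalised values that the authors also deposited were made separately for each period and were not used. Reads outside genes (18.9% to 26.3% of counted reads in RES) and on overlapping genes (0.470% to 0.754%) were left out of library sizes and tests, and the spike-in entries held 0 reads. Whether counting used strand is not given in the sources used here, so reads of overlapping antisense genes and of near-identical copies are uncertain.

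Of 24616 genes, 18604 had a read in RES and 12101, holding 99.8% of the reads on genes, had at least 4 reads in each of the 20 animals and were tested. Genes absent from any animal were thereby excluded. Counts were tested with the quasi-likelihood test (robust) of edgeR 4.0.16 in R 4.3.3 after TMM normalisation over the 20 libraries. FDR under 0.05 and a change of 0.32 on the log2 scale were required, after the study's criteria, and FDR alone for the interaction. The study words its FDR threshold as a percentage, so 0.0005 was also run. CPM of single animals are TMM normalised within each diet, and log2 CPM used a prior count of 2. Depth, percentages and distances were compared by two-sided tests with 100000 permutations. Alternatives used limma 3.58.1, DESeq2 1.42.0, the exact test and glmTreat of edgeR, other scalings, filters, blocks and covariates, and fits without each animal. The fit without replicates 4 and 5 of RES in Period 2, and the abundance classes and non-overlapping groups under scaling by total reads, were added after the data had been seen. Scripts were tested on simulated data. Replicate numbers were not taken as pairs.

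The comparison, lists and tests were chosen with earlier results of these data known. No identifier could be paired with a symbol, so the planned lists of pathway genes and of cell type markers were not run, and only the 2 largest rises and the 2 largest falls whose mean log2 CPM in RES was 1 or more are given.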

Additional observations from a re-analysis of the deposited data

Results flagged for a closer look

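An animal far from the others was looked for in 18 combinations of a measure and a RES group of 10 animals. The measures were the 4 genes given by identifier, reads on genes, percentage of reads on genes and genes with a read. Distance to the own group mean and position between the group means were also used. In 2 combinations an animal was flagged by its gap to the next animal. Both were RES replicate 7 of Period 1. It had 172 normalised CPM of ENSBTAG00000013103, the next animal having 61.6, and 127 normalised CPM of ENSBTAG00000013472, the next having 57.4. Leaving it out raised the log2 change to 3.07 in ENSBTAG00000013103 and to 2.71 in ENSBTAG00000013472, and both stayed called. No count expected by chance is given, since the 4 genes were picked from these data. The 2 flagged genes were also high in the same animals. The flag used only the gap to the next animal, so 2 high animals can mask each other. In ENSBTAG00000013103 the 2 highest RES animals of Period 2, at 1749 and 981 normalised CPM, were not flagged.

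The change between periods differed between RES and ADLIB in 1121 genes. It differed by 3.05 log2 units in ENSBTAG00000013103, by 2.60 in ENSBTAG00000013472, by -4.89 in ENSBTAG00000005596 and by -2.99 in ENSBTAG00000000042. Under the replicate block, the difference was 1.93 in ENSBTAG00000013103 and 1.81 in ENSBTAG00000013472, and neither passed FDR under 0.05. The percentage of reads on genes changed by 1.90 points in RES and by -1.51 points in ADLIB. The changes were thus opposite and differed by 3.41 points (permutation test, p = 3.00e-05). The part of this percentage in the gene changes was examined only by the fits that hold it as a covariate.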

How the results depend on the processing

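In RES, 13 of the 15 alternative settings gave a count of called genes within 1.5 times that reported. The exceptions were 438 genes (93 higher, 345 lower) at an FDR threshold of 0.0005 and 607 (185 higher, 422 lower) when edgeR's glmTreat tested against the same minimum change. Leaving out 1 animal at a time gave 2077 to 2655. In ADLIB, scaling by total reads gave 875 genes (844 higher, 31 lower), with the median log2 change of all genes moving from -0.002 to 0.12, DESeq2 gave 502, edgeR's exact test 398, glmTreat 1, and an FDR threshold of 0.0005 gave 0 in the quasi-likelihood test, where 2268 had an unadjusted p under 0.05. A covariate for the percentage of reads on genes gave 7, and the library-name block 0. In ADLIB that block takes no information on the period from the 5 animals of Period 2 with number 2. For the interaction, an FDR threshold of 0.0005 gave 97 genes and the covariate 629. The share of squared distance between periods ranged over 0.199 to 0.223 in RES and 0.0994 to 0.123 in ADLIB when 1 animal was left out, with p up to 4e-05 and 0.00331. The causes were not tested.

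Same-numbered RES animals of the periods deviated together with a correlation over 0.1 in 4 of 10 pairs, and 3 of 10 correlated best with their own number (1 of 10 in ADLIB). The mean correlation in RES was 0.087 for the same number and -0.010 for other numbers, and in ADLIB 0.031 and -0.004. Replicate numbers also run in the order of the library-name number within each group. The replicate number is thus not shown to pair animals. With the replicate block, 2589 genes were called in RES, 94 in ADLIB and 1250 in the interaction. ENSBTAG00000013103 had a log2 change of 1.69 (edgeR FDR = 0.0585) with this block.

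The count filter limits what could be seen. A further 296 genes passed a filter of over 1 CPM in at least 10 animals but not 4 reads in every animal, and 38 of them were called in that fit (20 higher, 18 lower, log2 changes from -3.74 to 2.88).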

Other observations

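No gene had reads in all 10 RES animals of Period 1 and in none of Period 2, whereas 1 gene, noticed after its values were seen and not tested, had reads in all 10 RES animals of Period 2 and in none of Period 1. Its reads in Period 2 ranged from 1 to 9 per animal and summed to 32. Set against the 3 reads that a count of 0 allows over the Period 1 group, it was 11.2-fold higher as a share of reads on genes. This value leaves out the counting error of the 32 reads and the spread between animals, so it is not a lower bound. A large value also follows from how the gene was picked. In ADLIB it had reads in 3 of 10 animals in Period 1 and in 9 of 10 in Period 2, with up to 12 and 14 reads.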
